A study of Mus musculus with 24 samples.

Results

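Nxf7, 5 Xlr genes (Xlr3a, Xlr3b, Xlr4a, Xlr5b and Xlr5c) and 3 Rhox genes (Rhox5, Rhox6 and Rhox9) belong to X-linked gene families of the germline and placenta, and 8 of these 9 transcripts were more abundant in mouse embryonic stem cells labelled as Smad2 knockouts, with the direction read from Smad2 itself. They are described here by their symbols among the 20625 genes listed in at least 1 of the authors' deposited tables for control and paused cells, and all 9 are in both. The 9 were named with their values in these tables known, so their levels and changes are given as a description. Nothing is concluded from the calls and the difference test printed for them. The cells were of the E14 line, grown on gelatin in serum and leukaemia inhibitory factor, and were wild type or from 1 of 2 knockout lines, Smad2_KO1 and Smad2_KO2. The Smad2 protein is phosphorylated by activated Nodal and activin receptors and then acts on transcription in the nucleus. Control cells received no inhibitor. Paused cells received 200 nM INK128 for 12 h. This compound blocks mTOR, a kinase that promotes growth, and its use brings embryonic stem cells into a dormant condition like that of delayed blastocysts. Each of the 6 combinations of genotype and condition had 4 libraries of poly(A) RNA, 24 in all, and the labels do not say whether the 4 came from separate cultures, so every error given measures the spread between libraries, which may be technical. The tables hold a mean over libraries and a change for each gene, so levels of single libraries and of each knockout line are not analysed here. How many clones each knockout line came from is not given in the sources used here.

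Nxf genes are relatives of Nxf1, the general export receptor that takes mRNA through the nuclear pore together with a small partner protein, Nxt1 or Nxt2. Xlr genes code for small nuclear proteins related to Sycp3, a component of the axis of meiotic chromosomes, and lie on the X chromosome in near-identical copies. Rhox genes form an X-linked cluster of homeobox transcription factors used in germ cells, Sertoli cells, epididymis and placenta, and Rhox5 is the founding member, known from embryonic stem cells and placenta. In somatic cells several genes of these families are kept silent by DNA methylation of their promoters.

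The promoters of the members that were higher are shown because these members differ in the CpG pairs that DNA methylation acts on. RefSeq windows on GRCm38.p6, from 250 bases before to 50 bases after the annotated start, were found for 7 of the 9 members, and Rhox6 and Rhox9 had no entry. Those of Xlr5c and Rhox5 lie 2461 and 50234 bases from the start of the GENCODE transcript measured here and are not printed. Capitals mark CpG pairs. The windows are chrX:135598732-135599031 on the minus strand for Nxf7, chrX:73097046-73097345 on the minus strand for Xlr3a, chrX:73191929-73192228 on the plus strand for Xlr3b, chrX:73082458-73082757 on the minus strand for Xlr4a and chrX:73148591-73148890 on the plus strand for Xlr5b.
Nxf7: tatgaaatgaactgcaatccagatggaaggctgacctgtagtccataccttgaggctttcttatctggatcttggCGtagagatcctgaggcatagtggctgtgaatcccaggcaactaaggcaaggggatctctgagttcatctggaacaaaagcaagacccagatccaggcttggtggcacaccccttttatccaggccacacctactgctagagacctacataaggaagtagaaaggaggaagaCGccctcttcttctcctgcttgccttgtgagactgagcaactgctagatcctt
Xlr3a: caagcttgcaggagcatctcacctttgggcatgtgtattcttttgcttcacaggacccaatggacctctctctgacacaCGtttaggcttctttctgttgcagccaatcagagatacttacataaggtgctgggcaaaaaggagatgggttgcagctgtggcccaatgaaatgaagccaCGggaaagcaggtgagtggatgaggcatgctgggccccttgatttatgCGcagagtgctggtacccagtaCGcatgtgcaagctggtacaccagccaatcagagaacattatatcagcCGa
Xlr3b: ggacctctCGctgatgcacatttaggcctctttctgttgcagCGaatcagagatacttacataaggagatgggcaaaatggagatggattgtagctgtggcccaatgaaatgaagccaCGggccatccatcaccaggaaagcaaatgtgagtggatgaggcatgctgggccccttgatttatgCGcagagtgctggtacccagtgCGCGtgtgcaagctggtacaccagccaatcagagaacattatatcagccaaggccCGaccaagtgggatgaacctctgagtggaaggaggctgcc
Xlr4a: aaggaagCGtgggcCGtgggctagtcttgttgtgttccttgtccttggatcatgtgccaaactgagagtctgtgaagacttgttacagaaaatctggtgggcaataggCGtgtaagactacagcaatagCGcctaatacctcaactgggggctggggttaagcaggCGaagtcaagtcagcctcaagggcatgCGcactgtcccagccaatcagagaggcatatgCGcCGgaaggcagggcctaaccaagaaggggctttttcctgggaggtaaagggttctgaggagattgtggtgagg
Xlr5b: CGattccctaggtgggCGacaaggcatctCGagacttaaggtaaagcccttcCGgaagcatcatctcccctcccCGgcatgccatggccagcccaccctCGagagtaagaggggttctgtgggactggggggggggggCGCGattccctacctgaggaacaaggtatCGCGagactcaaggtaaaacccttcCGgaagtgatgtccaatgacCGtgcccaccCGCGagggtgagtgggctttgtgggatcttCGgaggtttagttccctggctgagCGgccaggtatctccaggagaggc

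CpG pairs numbered 2 in the Nxf7 window, 5 in that of Xlr3a, 7 in that of Xlr3b, 8 in that of Xlr4a and 16 in that of Xlr5b, beside a median of 7 over 32851 RefSeq windows of the same length (lower quartile 3, upper quartile 20). The Nxf7 window was thus poor in CpG, and none of the 5 printed windows reached the upper quartile. Within the Xlr family, the windows of Xlr3a and Xlr3b were 94.1% identical over 237 aligned bases. Of 4 sets of letters searched on both strands, GTCTAGAC (a Smad3 and Smad4 element), AATCCACA (a FoxH1 element), CACGTG (an E-box) and GGCGGGAA (an E2F element), none was present in the 8 windows of the members, of which Nxf7 has 2. The 8 include the windows of Xlr5c and Rhox5, which lie away from the start of the transcript measured, so nothing is read from theirs. The 4 sets of letters are present in 0.213%, 0.855%, 7.15% and 2.19% of all windows in that order, and CACGTG was present in 7 of the 34 measured family genes with a window. Those 7 include Rhox4a2, Rhox4b, Rhox4e, Rhox4f and Rhox4g, which are copies of each other and not independent counts.

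Before the members were described, the targeted gene was examined. Smad2 itself was lower in the knockout by 0.35 ± 0.070 (log2, SE) without and by 0.63 ± 0.057 with INK128 in the authors' deposited tables, and on that basis the changes below are read as knockout over wild type. The tables do not name the direction. On this reading, 78.6% and 64.6% of the wild-type Smad2 transcript level remained in the knockout groups of control and paused cells. Of the 19778 control genes and 19979 paused genes tested, 41.4% and 42.6% had an adjusted p under 0.05 in the authors' DESeq2 tables (Benjamini-Hochberg) and are called changed here. These shares were 19.5% higher and 21.9% lower in control cells, and 20.5% higher and 22.0% lower in paused cells. With both genotypes set to equal summed counts, 60.5% in place of 47.1% of the control calls were higher. Of the 9 members, 8 were called higher in each condition, and Rhox5 was called lower in control cells and not called in paused cells. As the members were chosen on these contrasts, nothing is read from those counts. The same 8 were called and at least 2-fold higher in each condition, and 4.46% of all genes tested were called and at least 2-fold higher in control and 4.89% in paused cells. The median change was 1.67 over the 9 members in control cells and 1.99 in paused cells, against 0.00 over all genes of either table. In bulk RNA, fewer or more cells that express a gene and less or more of its RNA per cell cannot be told apart.

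**Figure D1:**
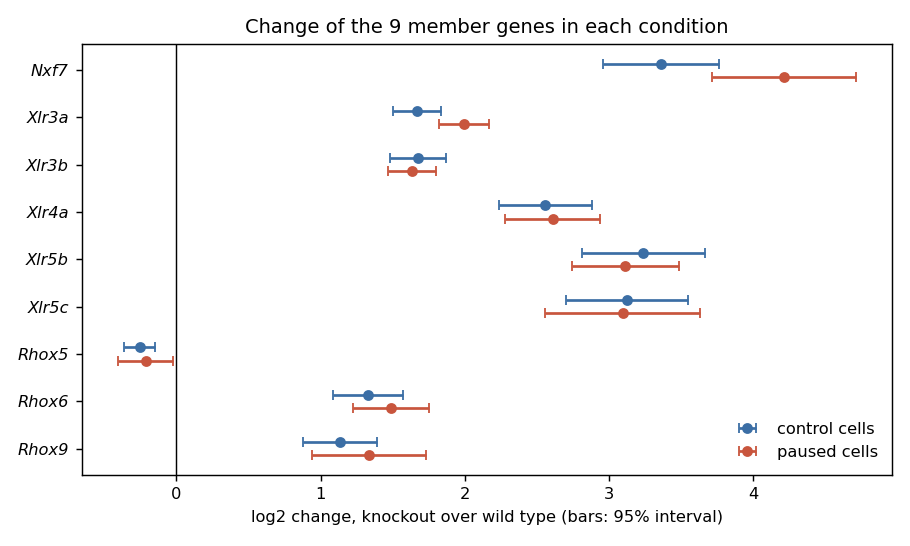
Change of the 9 members (log2, knockout over wild type, horizontal axis) in control and paused cells; points are the deposited changes and bars their 95% intervals. Nxf7 and both Xlr5 members lie above 3 in both conditions, and Rhox5 lies just below 0.

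Nxf7 had the greatest change among the 9 members in both conditions. It is at X:135579555-135598777 on the minus strand of GRCm38 with 23 exons (GENCODE M21, ENSMUSG00000031410.14). Its mean normalized count was 298 in control and 440 in paused cells per the authors' deposited tables, where its log2 change was 3.36 ± 0.21 (SE) in control and 4.21 ± 0.25 in paused cells. The folds were 10.2 (95% interval 7.75 to 13.6) and 18.5 (13.1 to 26.1), and the gene ranked 11th by rise in each table. Levels of either genotype can be worked out from the mean and the change if 4 wild-type and 8 knockout libraries were averaged. On that assumption Nxf7 stood at 18.6 normalized counts per kb of transcript in wild-type and 191 in knockout control cells, and at 15.5 and 288 in paused cells. The wild-type levels of the 2 conditions thus lay close together while the knockout levels were further apart, although the tables were normalized separately. The difference between the 2 changes was not called (normal test, adjusted p = 0.186), and nothing is read from the contrast of these levels.

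The other genes of the export family gave a mixed picture. Nxf3, an X-linked relative known from the Sertoli cells of the testis, was higher by 0.83 ± 0.14 in control cells (adjusted p = 1.34e-07) and 0.87 ± 0.10 in paused cells (adjusted p = 8.47e-17) in the authors' deposited tables. Nxf2, another X-linked relative found in testis, had a change of 0.77 ± 0.34 in control cells that was not called (adjusted p = 0.0593) and was called higher in paused cells by 1.62 ± 0.14 (adjusted p = 2.47e-28) in the same deposited tables. Its deposited mean count was 23.0 in control and 202 in paused cells, so the control value rests on far fewer counts. The difference between these Nxf2 changes was 0.85 with an adjusted p of 0.285, the same size as the difference of 0.85 for Nxf7. Nxf1, the general export receptor, and its partners Nxt1 and Nxt2 were not called in either condition, with deposited changes between -0.09 and 0.09. Coding sequences of Nxf7 and Nxf2 were 76.1% identical and those of Nxf7 and Nxf3 74.6%. No stretch of 50 bases of the Nxf1, Nxf2 or Nxf3 transcripts was found in another gene, and 3.07% of the stretches of Nxf7 were.

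The 5 Xlr members lie within a single cluster on the X chromosome, at X:73086293-73097095 (Xlr3a, minus strand), X:73192207-73202930 (Xlr3b, plus), X:73074345-73082478 (Xlr4a, minus), X:73148796-73158872 (Xlr5b, plus) and X:73282896-73292976 (Xlr5c, minus) on GRCm38. Each has 9 exons in the GENCODE transcript. Copies of the same subfamily are close to identical in their coding sequence. Xlr5b and Xlr5c differ at 4 of 708 aligned coding bases (99.4% identical), Xlr3a and Xlr3b at 12 of 663 (98.2%), and Xlr4a and its copy Xlr4b at 6 of 645 (99.1%). Between subfamilies identity was lower, at 70.5% for Xlr3a with Xlr4a, 73.1% for Xlr3a with Xlr5b and 72.3% for Xlr4a with Xlr5b. A read that falls in a shared stretch cannot be placed on 1 copy, and how the counting treated such reads, and whether it used strand, is not given in the sources used here. Stretches of 50 bases found in at least 1 other gene made up 71.7% of the Xlr3a transcript, 93.3% of Xlr3b, 69.5% of Xlr4a, 90.2% of Xlr5b and 84.9% of Xlr5c. The GENCODE model of Xlr5a spans X:73107635-73292976 and overlaps Xlr5b, Xlr3b and Xlr5c. The value of a single Xlr copy is therefore uncertain, and the sum over the copies of a subfamily is given beside it.

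**Figure D2:**
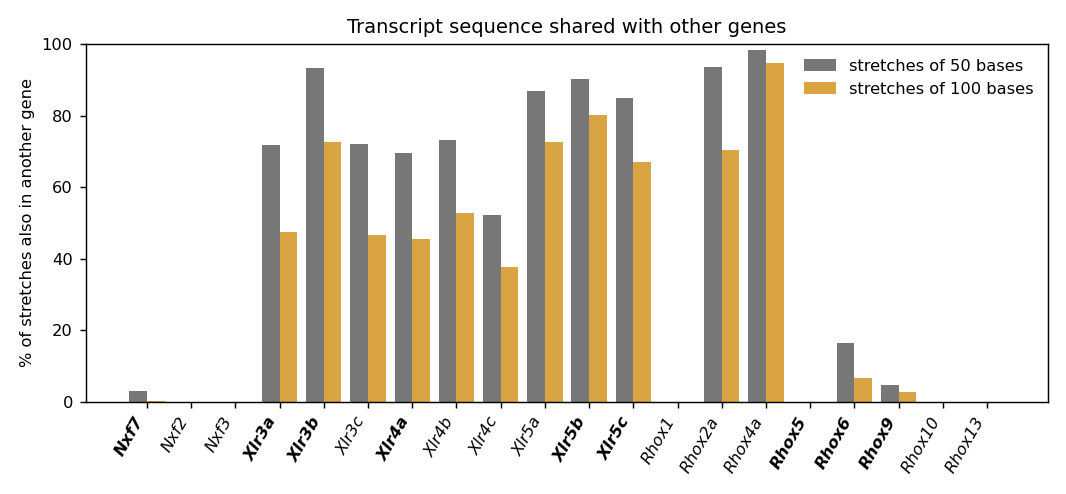
Share of the 50-base (grey) and 100-base (orange) stretches of a transcript that also occur in another gene, in percent, for the members (bold) and relatives. The Xlr3, Xlr4 and Xlr5 copies, Rhox2a and Rhox4a share most of their stretches of 50 bases, whereas Nxf7 shares 3.07% and Rhox5 shares 0%.

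Xlr5b and Xlr5c had the greatest changes of the Xlr members. Xlr5b had a deposited mean of 183 in control and 265 in paused cells, and the authors' deposited tables give it a change of 3.24 ± 0.22 and 3.11 ± 0.19. For Xlr5c the same deposited tables give means of 184 and 247 and changes of 3.12 ± 0.22 and 3.09 ± 0.27. Folds were 9.43 and 8.65 for Xlr5b and 8.71 and 8.54 for Xlr5c, in control and paused cells. With the assumption on libraries given above, Xlr5b went from 16.7 in wild-type to 158 counts per kb in knockout control cells and from 26.3 to 227 in paused cells, and Xlr5c from 18.1 to 157 and from 24.7 to 211. The changes of the 2 copies lay within 1 SE of each other in both conditions. The third copy, Xlr5a, was called higher by 3.26 ± 0.21 and 2.98 ± 0.19 in the authors' deposited tables (adjusted p = 1.98e-50 and 2.07e-52). Summed over the 3 copies, the Xlr5 fold was 9.21 in control and 8.37 in paused cells.

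Xlr4a had an intermediate change. Its mean was 171 in control and 151 in paused cells per the authors' deposited tables, with changes of 2.56 ± 0.16 and 2.61 ± 0.17, which are folds of 5.88 and 6.10. Its level per kb went from 34.5 to 203 in control cells and from 29.5 to 180 in paused cells, wild type to knockout. Xlr4b and Xlr4c, which together with Xlr3b are known to be expressed from the maternal X chromosome in mouse brain, were called higher in both conditions. The authors' deposited tables give 2.18 ± 0.17 and 2.62 ± 0.19 for Xlr4b (adjusted p = 2.42e-34 and 6.78e-39) and 2.09 ± 0.18 and 2.57 ± 0.19 for Xlr4c (adjusted p = 7.3e-29 and 1.96e-41). The summed fold over Xlr4a, Xlr4b and Xlr4c was 4.80 in control and 6.07 in paused cells.

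Xlr3a and Xlr3b were the most abundant Xlr members per kb of transcript and had the smallest changes of the Xlr members. In the authors' deposited tables Xlr3a had means of 714 and 500 and changes of 1.67 ± 0.085 and 1.99 ± 0.088 in control and paused cells. Xlr3b had deposited means of 785 and 692 and changes of 1.67 ± 0.10 and 1.63 ± 0.085. Worked-out levels were 177 and 562 counts per kb for Xlr3a in wild-type and knockout control cells, and 102 and 405 in paused cells. For Xlr3b they were 204 and 651 in control and 184 and 571 in paused cells. Xlr3c was called higher by 1.92 ± 0.11 and 1.72 ± 0.086 in the authors' deposited tables (adjusted p = 9.09e-71 and 1.09e-85). The subfamily sum of the 3 copies was 3.39-fold higher in control and 3.37-fold higher in paused cells.

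2 further relatives of the family share no stretch of 50 bases with a member. Xlr, the gene that names the family, was called higher at a low mean count, by 1.14 ± 0.48 in control cells (mean 10.6, adjusted p = 0.0426) and 2.04 ± 0.57 in paused cells (mean 7.66, adjusted p = 0.00136) in the authors' deposited tables. Sycp3, the autosomal relative that builds meiotic chromosome axes, was called lower in control cells by 0.42 ± 0.11 (adjusted p = 0.0011) and was not called in paused cells, where the authors' deposited table gives -0.14 ± 0.086 (adjusted p = 0.181). Of its stretches of 50 bases, 50.4% are also in another gene, Chpt1. The pseudogene Xlr4d-ps was not called in control cells at a deposited mean of 5.06 and was called higher in paused cells at a mean of 13.7.

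The Rhox members lie in a second X-linked cluster, at X:37804842-37808876 (Rhox5, plus strand), X:37826910-37829857 (Rhox6, plus) and X:37899097-37901770 (Rhox9, minus). Rhox6 and Rhox9, homeobox genes known from placenta and germ cells, were both higher. Rhox6 had means of 1032 and 940 and changes of 1.33 ± 0.12 and 1.49 ± 0.13 in the authors' deposited tables for control and paused cells, folds of 2.52 and 2.80. Rhox9 had deposited means of 980 and 931 and changes of 1.13 ± 0.13 and 1.34 ± 0.20, folds of 2.20 and 2.53. Per kb, Rhox6 went from 508 in wild-type to 1279 in knockout control cells and from 423 to 1185 in paused cells. Rhox9 went from 225 to 494 and from 190 to 481 on the same scale. The coding sequences of this pair were 92.4% identical, and 16.5% and 4.72% of their 50-base stretches were found in another gene, a smaller overlap than that of the Xlr copies.

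Rhox5 was the exception among the members, although its call as lower in control cells was lost with a 2-fold minimum, with a statistic scaled to the spread of a standard normal and when changes up to 1.2-fold counted as none. It had the highest level per kb of the 9, and its transcript shares no stretch of 50 bases with another gene. The authors' deposited tables give means of 3922 and 2424 and changes of -0.25 ± 0.055 in control and -0.21 ± 0.096 in paused cells. The fold of 0.838 in control cells had a 95% interval of 0.779 to 0.903, and that of 0.863 in paused cells an interval of 0.757 to 0.983. Its level per kb was 5829 in wild-type and 4887 in knockout control cells, and 3538 and 3052 in paused cells. Even in knockout cells Rhox5 stood above Rhox6 and Rhox9 on this scale, although the 3 lie within the same cluster. Coding identity of Rhox5 with Rhox6 was 78.0% over 540 aligned bases.

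Of the other Rhox genes, 9 of the 19 measured in each condition were called higher and 0 were called lower. Over all genes tested, 19.5% were called higher in control and 20.5% in paused cells. Rhox1, at the proximal end of the cluster, was higher by 0.86 ± 0.13 in control cells per the authors' deposited table (adjusted p = 7.03e-10) and 2.30-fold in paused cells (95% interval 1.90 to 2.79). Rhox13, a gene of male germ cells at the far end, was higher by 0.62 ± 0.13 (adjusted p = 1.94e-05) in the same deposited table and 2.29-fold in paused cells (95% interval 1.91 to 2.76). Rhox10, a gene of spermatogonial cells, was higher by 0.83 ± 0.26 (adjusted p = 0.00447) and 1.39 ± 0.42 (adjusted p = 0.00322), also per the authors' deposited tables. Rhox1, Rhox10 and Rhox13 share no stretch of 50 bases with another gene. Rhox2 is present in copies that share sequence, from 44.7% of stretches for Rhox2d to 100% for Rhox2e, and 4 of 7 were called higher in control and 5 of 6 in paused cells, with a summed fold of 2.29 and 2.22. Of the 8 Rhox4 copies, 2 and 1 were called higher, with a summed fold of 1.46 and 1.67 and deposited means of at most 24.6. Rhox7a and Rhox8, measured at means of at most 16.3 where they are listed, were not called.

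**Figure D3:**
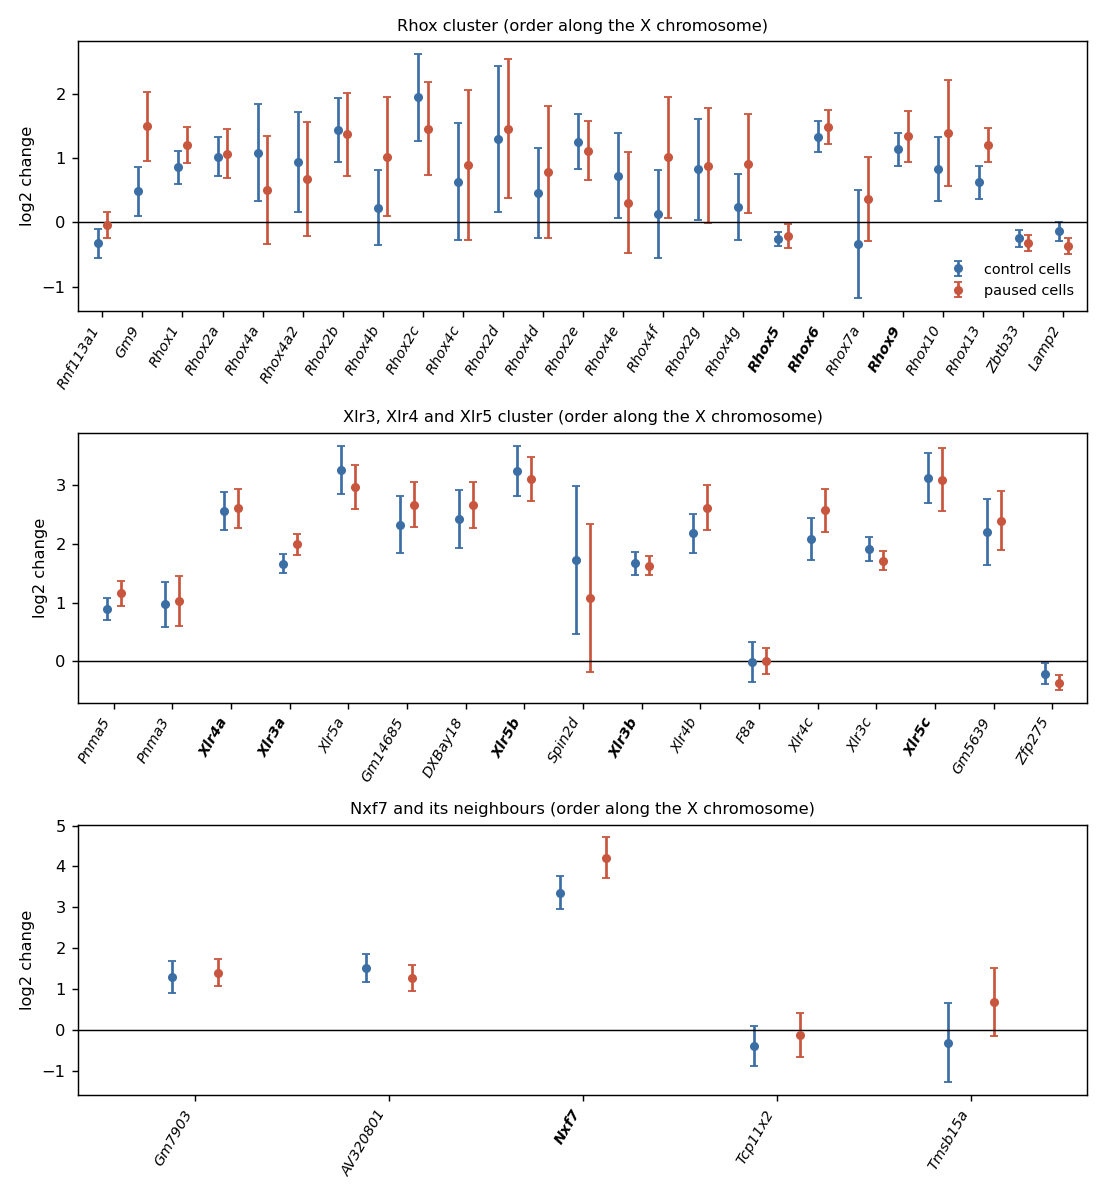
Changes (log2, knockout over wild type) of measured genes in order along the X chromosome through the Rhox, Xlr and Nxf7 regions, with bars for 95% intervals. Family genes mostly lie above 0, Rhox5 lies just below it, and F8a, inside the Xlr cluster, lies at 0.

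Taken over the 3 families without the members, 15 of 31 measured relatives were called higher and 1 lower in control cells, and 17 of 31 higher and 0 lower in paused cells. With the scaled statistic, 4 were higher in control and 5 in paused cells. Among relatives of at least 5 ppm the calls were 1 higher and 1 lower in control cells, and 2 higher in paused cells. Only Nxf1, Nxt1, Nxt2, Sycp3 and Xlr3c reached 5 ppm in control cells, and Nxf3 as well in paused cells. Most relatives could therefore not be called at that minimum. At an adjusted p under 0.05 alone, the shares over all genes tested are 19.5% higher in control and 20.5% higher in paused cells. With the scaled statistic, 189 of 19778 genes were higher in control and 321 of 19979 in paused cells. At the minimum of 5 ppm, 1983 genes were higher and 3411 lower in control cells, against 2164 and 3512 in paused cells. How many genes reached that minimum is not given here, so no share is compared. Many of these relatives are copies of each other and can share reads, so they are not independent counts. Among the 26 relatives that share no 50-base stretch with a member, 11 were called higher, 1 lower and 14 were not called in control cells, against 12, 0 and 14 in paused cells. The median change of the 31 relatives was 0.83 and 1.07, against 0.00 over all genes.

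Several members had a larger SE than genes of similar mean count. The SE of a member was 0.977 to 1.98 times the median SE of genes with a mean within 1.25-fold of its own in control cells, and 1.16 to 3.29 times in paused cells. This ratio was over 1.5 for 5 members in control and 6 in paused cells. Nxf7 was at 1.98 and 3.14 and Rhox9 at 1.86 and 3.29, and the Xlr3 and Xlr4 members were at 1.09 to 1.32. The comparison uses the mean over both genotypes, so a gene that is low in wild type can exceed it through its rise. On the assumption on libraries above, Nxf7 stood at 41.6 counts in wild-type control and 34.7 in wild-type paused cells. Its SE was 0.21 and 0.25, and genes with means near 44.9 and 33.3 had median SEs of 0.21 and 0.24. Ratios of members low in wild type, such as Nxf7, are therefore not read as excess spread. The knockout groups hold 2 lines, and whether the lines differ in these genes was not tested.

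Whether loss of Smad2 changed the members to another degree in paused than in control cells was examined as the difference of the 2 changes, with a two-sided normal p adjusted over the 19134 genes in both tables. Of these genes, 1.44% were called different and 12.9% had an unadjusted p under 0.05. No member was among them, and 2 members, Nxf7 and Xlr3a, had an unadjusted p under 0.05; as the members were chosen on both changes, nothing is read from these counts. The difference was 0.85 ± 0.33 (SE) for Nxf7 with a 95% interval of 0.21 to 1.49, and 0.33 ± 0.12 for Xlr3a with an interval of 0.09 to 0.57. The Nxf7 difference did not pass adjustment, and its size is given as a description. For Xlr3b the difference was -0.04 (interval -0.30 to 0.21), for Xlr4a 0.05 (-0.41 to 0.51), for Xlr5b -0.12 (-0.69 to 0.44) and for Xlr5c -0.03 (-0.71 to 0.66). It was 0.04 (-0.17 to 0.26) for Rhox5, 0.15 (-0.20 to 0.51) for Rhox6 and 0.20 (-0.27 to 0.68) for Rhox9. A p that misses the threshold does not show equal changes, and the interval of Xlr5c would hold a difference over 1.5-fold in either direction. Summed over copies, the differences were -0.01 (-0.26 to 0.25) for Xlr3, 0.34 (-0.15 to 0.83) for Xlr4 and -0.14 (-0.74 to 0.46) for Xlr5. Of the 30 relatives in both tables, 0 passed and 2 had an unadjusted p under 0.05, the lowest adjusted p being 0.0961 for Rhox13 with a difference of 0.57.

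**Figure D4:**
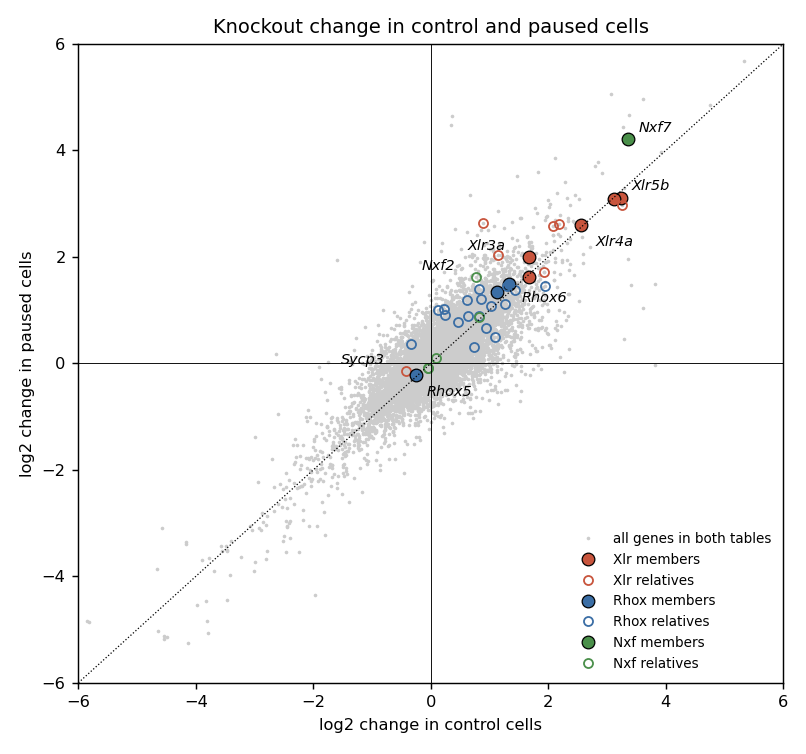
Change in paused cells against change in control cells (both log2, knockout over wild type) for the members, relatives and all other genes in both tables. The members lie near the diagonal, with Nxf7 above it at 3.36 and 4.21.

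Genes next to and among the members were compared along the X chromosome. Inside the Xlr cluster, F8a, which codes for a partner of huntingtin, had a change of -0.01 ± 0.18 and 0.00 ± 0.11 in the authors' deposited tables for control and paused cells and was not called (adjusted p = 0.984 and 0.979). Other genes inside it, Gm14685 and DXBay18, were higher by 2.33 ± 0.25 and 2.43 ± 0.25 in control and 2.67 ± 0.19 and 2.66 ± 0.20 in paused cells per the same deposited tables, but 98.2% and 97.0% of their stretches occur in other copies. Spin2d, with deposited means of 5.09 and 6.59, was called higher in control cells and not in paused cells. On the left of the cluster, Pnma5 and Pnma3, genes related to a retrotransposon protein, were higher by 0.89 ± 0.093 and 0.97 ± 0.20 in control and 1.16 ± 0.11 and 1.03 ± 0.22 in paused cells per the authors' deposited tables. On its right, the pseudogene Gm5639 was higher by 2.21 ± 0.28 and 2.40 ± 0.25 with 80.9% of its stretches also in other genes, Gm14685 and DXBay18 among them, and Zfp275, a zinc-finger gene, was at -0.21 ± 0.093 (not called) and -0.36 ± 0.068 (lower) in the deposited tables.

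Beside Nxf7, the left neighbours Gm7903 and AV320801 were higher by 1.29 ± 0.20 and 1.51 ± 0.18 in control and 1.41 ± 0.17 and 1.27 ± 0.17 in paused cells per the authors' deposited tables. They share 100% and 95.9% of their 50-base stretches with other genes, Pramel3 among them. The right neighbours Tcp11x2 and Tmsb15a were not called in either condition. At the Rhox cluster, Gm9 on the left was higher by 0.48 ± 0.19 and 1.49 ± 0.27 and Rnf113a1 was lower in control cells by 0.33 ± 0.12 and not called in paused cells per the authors' deposited tables. Zbtb33 on the right, which codes for the methyl-CpG binding protein Kaiso, was lower by 0.25 ± 0.068 and 0.31 ± 0.063 in the deposited tables, and Lamp2, a lysosomal membrane gene, was lower in paused cells by 0.36 ± 0.064. The X chromosome as a whole had a median change of -0.02 over 665 genes in control and -0.01 over 664 genes in paused cells. On it 23.9% of genes were called higher and 27.8% lower in control cells, against 25.8% and 27.6% in paused cells.

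By distance in the plane of both changes, over 2 comparisons and 5802 genes called in both tables, the genes most like Nxf7 were Pparg, Plac1 and Olr1. Pparg, a nuclear receptor of lipid metabolism named in the series title, was at 3.26 ± 0.34 and 4.44 ± 0.34 in the authors' deposited tables (distance 0.251), and Plac1, an X-linked gene of the placenta, at 3.38 ± 0.24 and 4.67 ± 0.32 (distance 0.456). Olr1, a receptor for oxidised lipoprotein, was at 3.92 ± 0.54 and 3.97 ± 0.49 in the deposited tables (distance 0.615). Nearest to the median Xlr member were Scn11a, DXBay18 and Xkr9, and nearest to the median Rhox member Creg2, LOC108168043 and Ikzf3, at distances of at most 0.152 and 0.0316. Several of these had low deposited means, such as Scn11a at 4.89 and 6.68 with SEs of 0.78 and 0.69. Ikzf3 was at 12.4 and 14.3 with SEs of 0.40 and 0.38. The SEs of each of these genes exceeded its distance, so their order is not read. With 2 values a gene, such likeness is a description.

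Other X-linked germline genes were counted on a list chosen by symbol, on which Ssx2ip and Mageb3, matched by their first letters, are not X-linked. Of 28 measured in each condition, 16 were called higher and 3 lower in control cells, against 22 and 2 in paused cells, with a median change of 0.67 and 1.02. On the X chromosome as a whole, 23.9% of genes were called higher and 27.8% lower in control cells, against 25.8% and 27.6% in paused cells. All genes tested gave 19.5% and 20.5% higher. The Fthl17 genes, ferritin-like genes of the early embryo and testis, were higher in both conditions for 7 of 7, and Fthl17a was at 1.52 ± 0.31 and 1.72 ± 0.30 in the authors' deposited tables. Of the Magea genes, a family of cancer and testis antigens, 3 of 5 were called higher in control and 5 of 5 in paused cells. Pramel3 was higher by 1.55 ± 0.23 and 1.11 ± 0.20, and Tex13, a testis gene, by 1.85 ± 0.50 and 1.65 ± 0.38, in the deposited tables. Members of these families are copies as well and can share reads.

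Among placenta genes, Plac1 had changes near those of Nxf7 and the other named genes had smaller ones. Of 13 measured, 7 were called higher and 0 lower in control cells, against 9 and 2 in paused cells, with a median of 1.01 and 0.97. All genes tested gave shares of 19.5% higher and 21.9% lower in control cells, against 20.5% and 22.0% in paused cells. Besides Plac1, Esx1, an X-linked homeobox gene of the placenta, was higher by 2.08 ± 0.14 and 2.41 ± 0.17 in the authors' deposited tables. Hand1, a regulator of trophoblast giant cells, was higher by 1.95 ± 0.18 and 2.69 ± 0.26, and Syna, an envelope-derived fusion gene of syncytiotrophoblast, by 1.01 ± 0.19 and 2.15 ± 0.22, in the deposited tables. Pet2, which the list holds although it is known as a plasmacytoma transcript, had deposited means of 4.40 and 4.21 and was called higher in control cells and not in paused cells. Of the 4 X-linked genes on this list, Pet2 included, 3 were called higher and 0 lower in control cells, against 2 and 1 in paused cells. The gene called lower was Cited1, a transcriptional coregulator of the placenta, with changes of -0.47 ± 0.28 and -1.13 ± 0.37 in the authors' deposited tables, named after its value was seen.

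**Figure D5:**
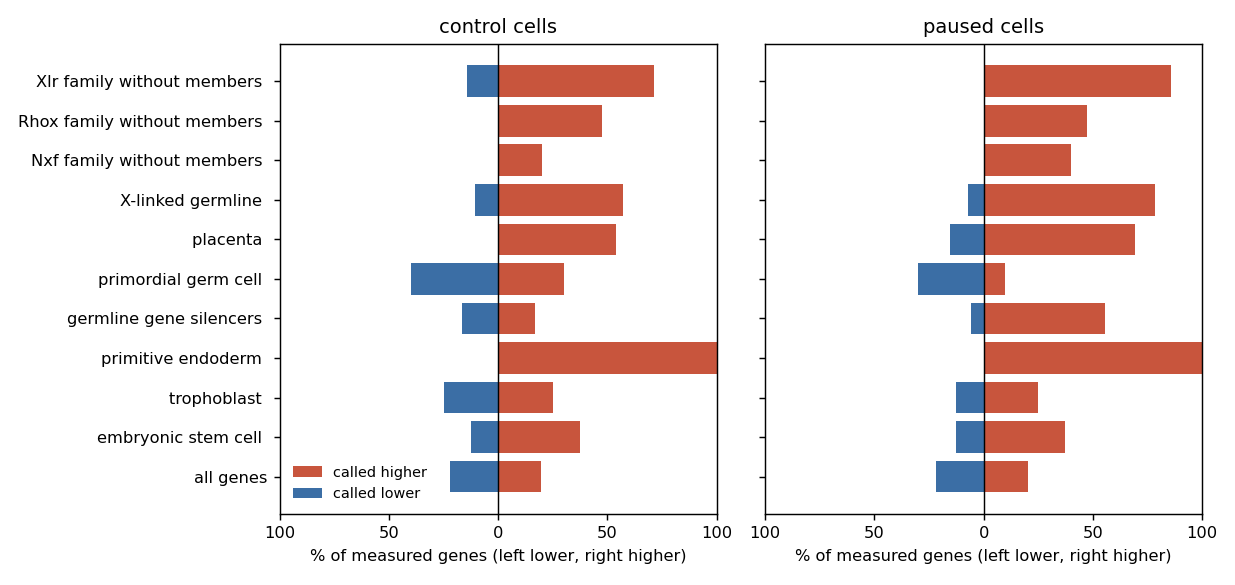
Share of the measured genes of each list called higher (right) and lower (left) in the knockout, in percent, in control and paused cells. The Xlr, Rhox and Nxf lists are drawn without the members, and the lowest bar is for all genes. Called higher were 71.4% and 85.7% of the Xlr list and 53.8% and 69.2% of the placenta list. For the primordial germ cell list the shares were 30% and 10%, and for all genes 19.5% and 20.5%.

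Genes of primordial germ cells, where Rhox6 and Rhox9 are also expressed, did not share one direction. Of 10 measured, 3 were called higher and 4 lower in control cells, against 1 and 3 in paused cells. The shares over all genes tested were 19.5% higher and 21.9% lower in control cells, against 20.5% and 22.0% in paused cells. Counts over so few genes are not read as an excess or a lack. Dazl, an RNA-binding protein of germ cells, was higher by 1.10 ± 0.068 and 1.30 ± 0.088, and Dppa3, a maternal and germ cell factor that protects DNA from demethylation, was lower by 0.50 ± 0.13 and 0.62 ± 0.14, in the authors' deposited tables. Nanos3, needed for germ cell survival, was lower by 0.64 ± 0.18 and 1.06 ± 0.16 in the deposited tables. On a list of 18 factors that silence germline genes or, as Tet1, Tet2 and Tet3, act on DNA methylation in the opposite sense, 3 were called higher and 3 lower in control cells, against 10 and 1 in paused cells, with medians of 0.04 and 0.13. In control cells 16.7% of this list was called higher, near the 19.5% over all genes tested. In paused cells the share was 55.6%, beside 20.5% over all genes. Tet2, which oxidises methylated cytosine, was higher by 0.59 ± 0.072 and 0.28 ± 0.072, and Uhrf1, which recruits the maintenance methyltransferase, by 0.24 ± 0.054 and 0.30 ± 0.052, in the authors' deposited tables. The de novo methyltransferase Dnmt3b was lower in control cells by 0.32 ± 0.092 and not called in paused cells, where Dnmt3a and its partner Dnmt3l were higher by 0.34 ± 0.071 and 0.39 ± 0.073 in the deposited table. Tet3 had the greatest rise of this list in paused cells, 0.40 ± 0.095, and was not called in control cells (0.06 ± 0.11), per the authors' deposited tables. E2f6, a repressor of germline genes, was lower by 0.33 ± 0.061 and 0.16 ± 0.055 in the deposited tables.

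Markers of the cell types that these cultures could hold were examined beside the members. All genes tested gave shares of 19.5% higher and 21.9% lower in control cells, against 20.5% and 22.0% in paused cells. The marker lists are short, so counts near these shares are not read as a result. Of 8 embryonic stem cell markers, 3 were called higher and 1 lower in each condition. All 5 primitive endoderm markers were called higher in both, and their summed level went from 12.0 to 23.3 ppm (parts of the summed mean counts of all genes) in control cells and from 25.3 to 42.3 in paused cells, wild type to knockout. Of 8 trophoblast markers, 2 were called higher and 2 lower in control cells, against 2 and 1 in paused cells, and their summed level went from 429 to 349 and from 484 to 426. Most of this sum came from Krt8, Krt18 and Tfap2c, which were not called in either condition, and the SE of Krt8 and Krt18 was 6.45 to 9.77 times the median SE of genes of similar mean. Gata3, a trophoblast regulator, was higher by 1.54 ± 0.13 and 2.04 ± 0.15 while Cdx2, the trophectoderm regulator, was lower by 0.84 ± 0.22 and 0.92 ± 0.35 in the authors' deposited tables. Of 6 germ cell markers, 2 were called higher and 4 lower in control cells, against 1 and 2 in paused cells, with summed levels from 117 to 122 and from 139 to 152. Of 4 fibroblast markers, 0 were called higher and 2 lower in each condition. These were the collagen genes Col1a1, lower by 2.79 ± 0.40 and 3.53 ± 0.47, and Col1a2, lower by 0.87 ± 0.29 and 0.93 ± 0.34, in the authors' deposited tables. The fall of Col1a1, at mean counts of 381 and 245, was of the size of the members' rises, and its SE was 4.30 and 4.43 times that of genes of similar mean. No marker on these lists was at 0, and the part of other cell types in the members' changes was not tested.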

How the data were processed

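Poly(A) RNA of 24 libraries was measured in 6 groups, taken from the sample titles. Per the submitters' processing notes, FastQC, Trim Galore, HISAT2, featureCounts, DESeq2 and the mouse build mm10 were used; versions, annotation, treatment of shared reads and use of strand are not given in the sources used here. The authors deposited 2 DESeq2 results tables, per the file headers. The authors deposited a mean over libraries of normalized counts (a signal), the change is a deposited log2 ratio with its SE, the deposited statistic is a score, and p-values and adjusted p-values were deposited beside them. The change over its SE gave the statistic within 1% for 19780 and 19979 genes. Which libraries entered each table is not stated, and depth per library is unknown, so the SE is the only precision available.

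From these tables, calls used an adjusted p under 0.05. Folds with 95% intervals (normal, change ± error), worked-out genotype levels (4 wild-type and 8 knockout libraries assumed), sums over copies (SE taken as fully shared between copies) and the difference test were computed with Python 3.11.15, numpy 2.4.6, pandas 2.3.3 and scipy 1.17.1. The difference test was checked on data with known answers, drawn with normal errors of the size of the deposited SEs. That check cannot show whether those SEs fit the real spread. Count tests on single libraries were not possible, as the tables hold results per gene.

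Coordinates, transcripts and shared stretches (50 and 100 bases) came from GENCODE M21 on GRCm38, the longest coding transcript per symbol, matched by symbol for 86.6% of 20625 genes. A stretch counted as shared where a transcript of another gene held it or its reverse complement. Alignments used Biopython 1.88. The members and gene lists were chosen with earlier results of these data known. Named genes were Smad2, the members, measured family genes, at most 4 called genes per other list and table by size of change, the 2 nearest measured genes on each side of a cluster, and the 3 genes nearest to Nxf7 and to the median Xlr and Rhox member in change. Genes inside the Xlr cluster, the cell type markers named, the list genes that differed between conditions, Cited1, and the Fthl17 and Magea subsets were chosen after their values were seen. Alternatives were another threshold, a minimum of 2-fold, a minimum abundance, equal summed counts, a scaled statistic and a 1.2-fold null.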

Additional observations from a re-analysis of the deposited data

Results flagged for a closer look

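Of the genes on the lists described, 5 differed between conditions by the test of the difference itself (normal test, adjusted over 19134 genes), and no member or family gene did. They were 2 of 13 placenta genes, 1 of 18 germline gene silencers, 1 of 8 embryonic stem cell and 1 of 8 trophoblast markers. Over all 19134 genes the share was 1.44%. Only L3mbtl2 had an adjusted p under 0.01. On the placenta list, the paused change of Syna exceeded its control change by 1.14 ± 0.29 on the log2 scale (adjusted p = 0.0145), from 1.01 to 2.15 at mean counts of 67.2 and 119 in the authors' deposited tables. On the same list, Cdkn1c, a cell cycle inhibitor, had a difference of 0.72 ± 0.20 (adjusted p = 0.0282). L3mbtl2, a germline gene silencer, had a difference of 0.24 ± 0.051 (adjusted p = 0.00149), with deposited changes of -0.04 and 0.19. Among the markers, the difference was 0.89 ± 0.25 for Eomes (trophoblast, adjusted p = 0.0326) and -0.30 ± 0.083 for Klf4 (embryonic stem cell, adjusted p = 0.0264).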

How the results depend on the processing

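No paired analysis was possible because the files hold results per gene and no value per library, and leaving out each replicate was not run for the same reason. The count of genes called fell from 8189 in control cells to 1380 with a 2-fold minimum, 5394 above an abundance of 5 ppm, 293 with a statistic scaled so that its median size is that of a standard normal and 2090 against a 1.2-fold null, and from 8504 in paused cells to 1418, 450 and 2122 with the 2-fold minimum, the scaled statistic and the 1.2-fold null. Called relatives fell from 16 in control cells to 10, 2, 4 and 10 under the same 4 settings (20 with equal summed counts), and from 17 in paused cells to 2 at the minimum abundance and 5 with the scaled statistic. Most relatives lay under the minimum abundance. Differences between conditions fell from 275 to 102 at an adjusted p under 0.01, 28 with the 2-fold minimum, 35 with the scaled statistic and 2 against the 1.2-fold null. Members called numbered 9 in control and 8 in paused cells, and at least 6 and 7 under every alternative, but the 1 lower call, Rhox5 in control cells, was lost with the 2-fold minimum, the scaled statistic and the 1.2-fold null. With both genotypes set to equal summed counts, the median of all genes was 0.06 in control and 0.03 in paused cells, the share of calls that were higher went from 47.1% to 60.5% in control and from 48.2% to 57.6% in paused cells, and no member's change reversed; Rhox5 in control cells was then at -0.20. The values of 4 knockout libraries in place of 8 left each summed fold within 0.02.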
